A study of Mus musculus with 18 samples.

Results

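The interferon-inducible GTPases described here are 9 genes, taken from the 55487 rows of the deposited count table by their gene names. They comprise 6 immunity-related GTPases (IRGs), namely Tgtp1, Tgtp2, Igtp, Irgm1, Irgm2 and Iigp1, and 3 guanylate-binding proteins (GBPs), namely Gbp2, Gbp3 and Gbp7. The set was chosen by family, with the levels and fold changes of these genes between the groups of the same libraries already known, and which of those values were decisive is not recorded. Their levels, fold changes and counts are therefore given as a description, with no p-value. All 9 genes had enough counts to enter the model.

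The study measured messenger RNA by paired-end sequencing in wild-type mouse embryonic fibroblasts (MEFs), a cell line obtained from a repository. It asked how serum alters whether cells are sensitive or resistant to ferroptosis. Scm and Rcm are complete media made with a fetal bovine serum that leaves cells sensitive to ferroptosis (S-FBS) and one that makes them resistant (R-FBS). Of the 6 groups of 3 libraries, 2 were in steady culture in Scm or Rcm and were sampled at 0 h. The S-Rcm groups were kept in Scm and given Rcm for 12 h or 24 h, and the R-Scm groups were kept in Rcm and given Scm for 12 h or 24 h. No group received fresh medium with its own serum, so the change of serum and the change of medium cannot be told apart within either exchange. The study's methods describe its cell culture experiments in general as independently replicated. The labels do not state whether the 3 libraries of a group came from separate cultures, and if they did not, the spread between them is technical.

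IRGs and GBPs are cytosolic GTPases whose genes are switched on by interferons and which defend a cell from within. Effector IRGs such as Tgtp1, Tgtp2 and Iigp1 load onto the vacuoles in which parasites and some bacteria live and break the vacuole membrane, while the regulators Irgm1, Irgm2 and Igtp sit on the membranes of the cell itself and hold the effectors inactive there. GBPs are larger, dynamin-like GTPases that assemble on vacuoles and bacteria and help the cytosolic sensing of microbial products. Promoters of both families are known for a pair of DNA elements through which interferons act, the gamma-activated sequence (GAS) and the interferon-stimulated response element (ISRE).

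The library totals were 14534906 to 20313715 counts. Of the 18 libraries, 12 lay closest to the centre of their own group over all tested genes. Of the other 6, R-Scm 24 h replicate 1 lay closest to Rcm, R-Scm 24 h replicate 3 and S-Rcm 24 h replicate 2 to Scm, Rcm replicate 3 and S-Rcm 12 h replicate 2 to S-Rcm 24 h, and S-Rcm 24 h replicate 1 to R-Scm 24 h. All 8 fibroblast markers were expressed, with a summed level of 8053 to 12530 CPM, which are counts per 1000000 counts of the scaled library. Of 8 leukocyte markers, 6 had 3 counts or fewer in every library, with Adgre1, Cd3e and Nkg7 at 0. Their summed level was 3.56 to 5.46 CPM in R-Scm 12 h and 2.29 to 3.54 CPM in the other groups. Most of that sum was Cd68 (2.03 to 4.91 CPM), and Csf1r had at most 6 counts. The 4 endothelial markers summed to 0.602 to 3.25 CPM in R-Scm 12 h and to at most 1.48 CPM in the other groups. The 4 epithelial markers summed to at most 0.552 CPM. The part of these differences in the results at 12 h was not tested.

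In GRCm38 with the GENCODE M21 annotation, 5 of the 6 IRG genes lie on chromosome 11. They are Irgm1 (48861968 to 48871683), Tgtp1 (48985327 to 48994172) and Tgtp2 (49057194 to 49064206) on the minus strand, and Igtp (58199556 to 58207591) and Irgm2 (58199618 to 58222782) on the plus strand. The sixth, Iigp1, is placed with its values. The GBP genes follow one another on the plus strand of chromosome 3, with Gbp7 at 142530342 to 142550149, Gbp3 at 142560026 to 142573209 and Gbp2 at 142620602 to 142638008. Some of these genes share sequence, so their counts are uncertain. The Tgtp1 and Tgtp2 transcripts were 99.75% identical over 2811 aligned bases, Igtp and Irgm2 share 162 exonic bases, Tgtp1 shares 223 exonic bases with Gm12185 and Gbp7 shares 637 with the pseudogene Gm43802. Gm12185 had 2 to 20 counts in a library and Gm43802 had 1 to 3.

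RefSeq promoters of GRCm38.p6, running from 250 bases before to 50 bases after the start site, were given for 8 of the 9 genes, all except Iigp1. An ISRE core, spelled GAAA, then any 2 bases (NN), then GAAA, and searched on both strands, was in all 8 of them and in 3.44% of 32851 mouse promoters of the same 300 bases. A GAS element, spelled TTCNNNGAA and searched in the same way, was in 5 of the 8 (Tgtp1, Tgtp2, Igtp, Irgm2 and Gbp7) and in 8.3% of all promoters. The first base of each ISRE match lay between 77 and 24 bases before the RefSeq start site. For Tgtp1, Irgm1, Irgm2 and Gbp2 that start site and the ISRE matches lie inside the GENCODE limits of the gene given above, so the annotations differ in where these genes begin. The 8 windows of 30 bases that hold these matches are shown because they are what the members have in common in sequence. Each is written 5′ to 3′ on the strand of its gene, with ISRE and GAS matches in capitals.
Tgtp1 (chr11:48992309-48992338, minus strand): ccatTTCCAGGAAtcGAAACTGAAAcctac
Tgtp2 (chr11:49064268-49064297, minus strand): ccatTTCCAGGAAtcGAAACCGAAAcctac
Igtp (chr11:58199507-58199536, plus strand): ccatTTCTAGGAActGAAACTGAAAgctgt
Irgm1 (chr11:48871428-48871457, minus strand): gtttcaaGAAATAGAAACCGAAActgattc
Irgm2 (chr11:58214898-58214927, plus strand): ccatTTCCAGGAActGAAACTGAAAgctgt
Gbp2 (chr3:142620594-142620623, plus strand): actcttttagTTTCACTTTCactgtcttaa
Gbp3 (chr3:142559992-142560021, plus strand): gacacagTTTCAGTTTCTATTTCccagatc
Gbp7 (chr3:142530273-142530302, plus strand): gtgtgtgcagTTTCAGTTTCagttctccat
In Tgtp1, Tgtp2, Igtp and Irgm2, a GAS match began 11 bases before the ISRE match, in an almost identical stretch. Irgm1 and Gbp3 each held 2 overlapping ISRE matches and Gbp2 held 1, none with a GAS match in the promoter. Gbp7 held 2 GAS matches farther upstream, at 106 and 87 bases before the start site. The windows are matches to letters and say nothing about binding.

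For one regulator and one GBP, the 250 bases before the RefSeq start site are given whole, since they show how the matches lie along a promoter (plus strand, 5′ to 3′, same capitals).
Igtp (chr11:58199306-58199555): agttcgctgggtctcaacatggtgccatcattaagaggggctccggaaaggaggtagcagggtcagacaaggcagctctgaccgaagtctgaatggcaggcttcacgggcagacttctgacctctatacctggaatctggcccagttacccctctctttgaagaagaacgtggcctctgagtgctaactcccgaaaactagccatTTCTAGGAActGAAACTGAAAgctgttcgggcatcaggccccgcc
Gbp7 (chr3:142530086-142530335): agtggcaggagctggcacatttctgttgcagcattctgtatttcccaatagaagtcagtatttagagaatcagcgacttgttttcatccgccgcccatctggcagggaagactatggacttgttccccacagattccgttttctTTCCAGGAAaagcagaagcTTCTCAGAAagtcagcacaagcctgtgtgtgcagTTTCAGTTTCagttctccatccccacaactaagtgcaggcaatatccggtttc
The Igtp stretch held the pair of matches close to its right end, near the start site. In the Gbp7 stretch the ISRE match lay downstream of both GAS matches.

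All 9 genes were higher in steady Rcm culture than in steady Scm culture. These are levels in bulk RNA, in which more expressing cells and more RNA per cell cannot be told apart. Every Rcm library lay above every Scm library for each of them, and the fold change ran from 3.98 for Irgm1 to 13.8 for Tgtp1, with Tgtp2, which was near 0 counts in Scm, given apart. The fitted log2 fold changes had a median of 2.86 and a range of 1.99 to 4.11, against a median of 0.01 over the 15381 genes tested. All 9 passed the study's thresholds for a differentially expressed gene (DEG), an absolute log2 fold change above 0.58 with an adjusted p under 0.05, here in edgeR's quasi-likelihood test. Among all genes tested, 1.67% passed them as higher in Rcm and 12.8% had all Rcm libraries above all Scm libraries, and since the set was chosen with this contrast known, nothing is read from the difference. Tgtp1, Tgtp2, Iigp1 and Gbp7 also passed the filter for low counts through groups other than Scm. They had as few as 6, 0, 6 and 7 counts in an Scm library.

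Among the effectors, Tgtp1 measured 0.374, 0.485 and 0.412 CPM in the 3 Scm libraries and 7.67, 6.12 and 3.96 CPM in the 3 Rcm libraries. The fitted value was a log2 fold change 3.79, SE 0.44. Tgtp2, its near-identical neighbour, had 2, 0 and 0 counts in Scm and 13, 15 and 14 counts in Rcm, a ratio of 19.7 after scaling to the library totals, with an interval for counting error of 5.13 to 168 (95%, exact). At these counts the ratio is known only to lie well above 1. With Tgtp2 set to the lower end of that interval in place of its fitted value, the middle value over the set was a log2 of 2.73. Iigp1, on the plus strand of chromosome 18 (60376027 to 60392634), measured 0.321, 0.416 and 0.550 CPM in Scm and 4.37, 4.06 and 2.18 CPM in Rcm (log2 fold change 3.04, SE 0.39). Replicate 3 was the lowest Rcm library for all 3 effectors and still lay above Scm.

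The regulators had smaller fitted fold changes than the effectors of this set, although the value of Tgtp2 is uncertain and Irgm2 and Iigp1 differed by less than the SE of Irgm2. Gm12250, an effector IRG outside the set that is described below, had a smaller fitted value than all 3 regulators. Irgm1 measured 6.26, 6.725 and 8.86 CPM in Scm and 29.7, 31.9 and 25.25 CPM in Rcm (log2 fold change 1.99, SE 0.38). Irgm2 measured 3.37, 2.91 and 2.34 CPM in Scm and 20.02, 21.96 and 15.65 CPM in Rcm (log2 fold change 2.73, SE 0.62). For Igtp, which is the third of the regulators, the Scm libraries gave 3.05, 3.33 and 3.09 CPM and the Rcm libraries 17.8, 17.9 and 16.05 CPM (log2 fold change 2.45, SE 0.32). The libraries of each medium lay close together for these 3 genes, with a wide gap between the media.

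Gbp2 measured 5.24, 4.99 and 6.18 CPM in Scm and 23.1, 28.2 and 22.35 CPM in Rcm (log2 fold change 2.17, SE 0.28). Gbp3 measured 5.24, 3.88 and 3.85 CPM in Scm and 33.7, 34.3 and 26.7 CPM in Rcm (log2 fold change 2.86, SE 0.41). Gbp7 was the most variable of the 3 GBPs, at 0.695, 0.485 and 1.51 CPM in Scm and 13.3, 11.7 and 4.47 CPM in Rcm (log2 fold change 3.45, SE 0.50). Its lowest Rcm library was replicate 3, which was the lowest Rcm library for all 9 genes and lay closest to S-Rcm 24 h over all tested genes, with a summed level of 117 CPM against 150.5 and 157 CPM. Without that library all 9 genes still passed both thresholds (2.31% of all genes as higher), with a median log2 fold change of 2.95. Leaving out Scm replicate 2 reduced the genes past both thresholds from 9 to 6, with 0.828% of all genes then past them as higher, and the median log2 fold change was then 2.79 (Irgm1, Irgm2 and Tgtp2 no longer passed).

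**Figure D1:**
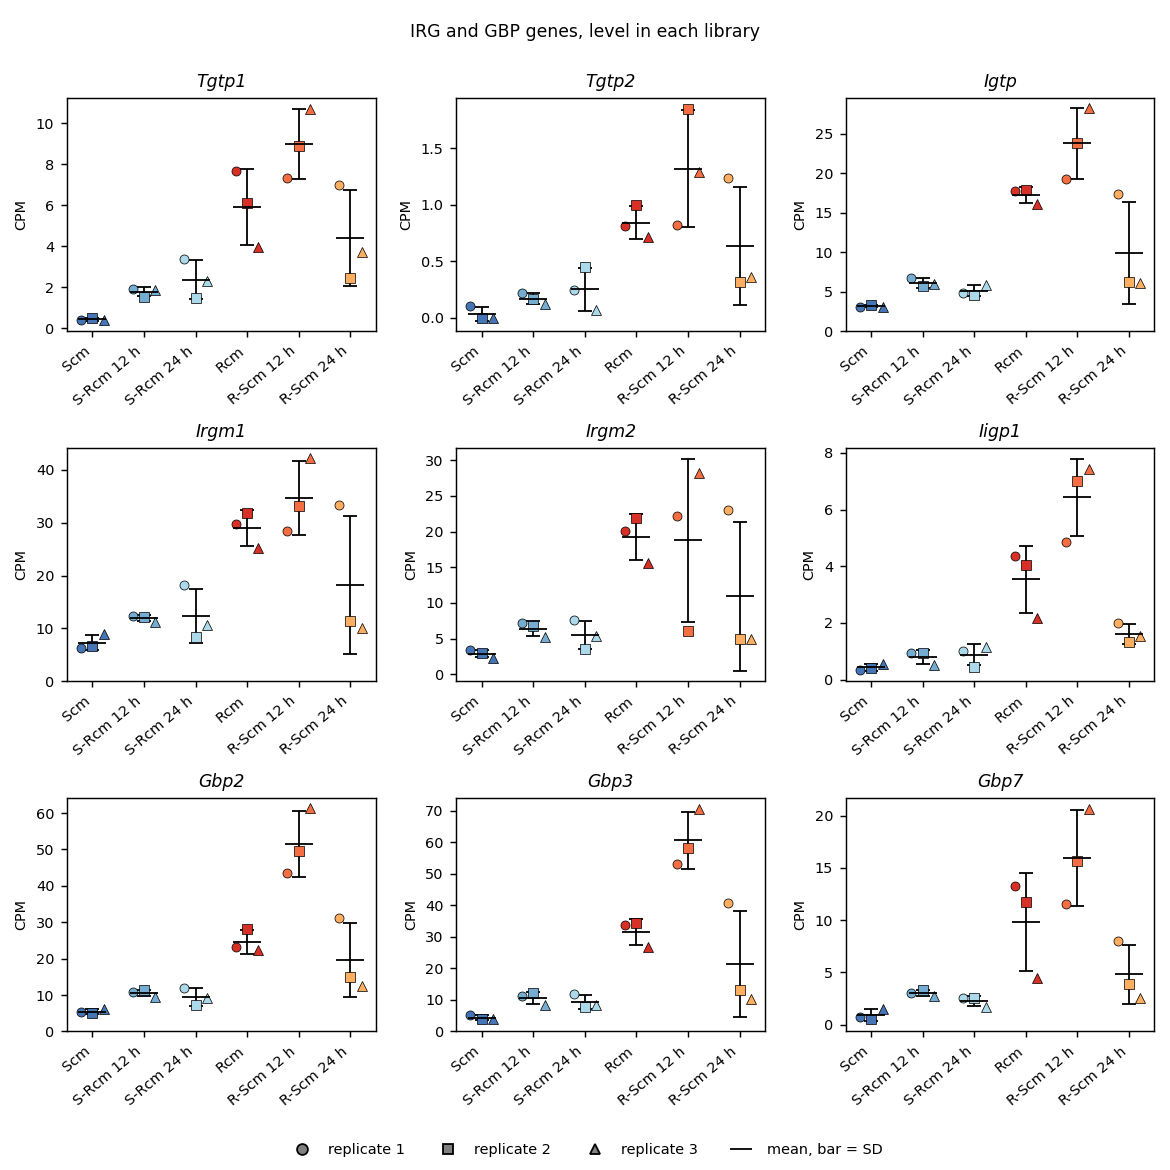
Level of each of the 9 genes (CPM, linear axis that includes 0) in the 6 groups, with 1 symbol per library, a horizontal line at the mean and a bar of 1 SD (n = 3). Scm is the lowest group in all 9 panels, and R-Scm 12 h is the highest in 8, with Irgm2 highest in Rcm.

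Levels can be compared between genes only per length of transcript. In CPM divided by the kilobases of merged exons (RPKM), the order in Rcm was 9.76 ± 1.26 for Gbp2, 9.68 ± 1.30 for Gbp3, 8.53 ± 0.510 for Igtp, 5.205 ± 0.876 for Irgm2, 4.98 ± 0.581 for Irgm1, 1.85 ± 0.581 for Tgtp1, 1.75 ± 0.837 for Gbp7, 0.607 ± 0.203 for Iigp1 and 0.286 ± 0.0496 for Tgtp2 (mean ± SD, n = 3). As counted, the 3 regulators and 2 of the GBPs thus lay above the effectors per length. How reads that match both Tgtp1 and Tgtp2 were counted is not known, so the levels of these effectors may be too low. Neighbours in this order whose means differed by less than 1 SD were Gbp2 and Gbp3, Gbp3 and Igtp, Irgm2 and Irgm1, and Tgtp1 and Gbp7.

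At 12 h after Rcm was replaced with Scm, the levels of these genes were not near those of steady Scm. Of the 9, 8 were higher in R-Scm 12 h than in Rcm by the fitted value, with a median log2 difference of 0.66 and a range from -0.03 for Irgm2 to 1.07 for Gbp2. Gbp2 alone passed both thresholds, beside 1.51% of all genes tested that passed them as higher. In 4 genes (Igtp, Iigp1, Gbp2 and Gbp3) all R-Scm 12 h libraries lay above all Rcm libraries, as did 11.7% of all genes. The call of Gbp2 was lost (0 genes) without any 1 of the 3 Rcm libraries and without R-Scm 12 h replicate 2 or 3, and 2 genes passed without R-Scm 24 h replicate 1 (1.92% of all genes).

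The largest differences at 12 h were those of Gbp2 and Gbp3. Gbp2 measured 43.4, 49.7 and 61.3 CPM in R-Scm 12 h (log2 fold change 1.07, SE 0.26 against Rcm). Gbp3 measured 53.1, 58.3 and 70.7 CPM (log2 fold change 0.94, SE 0.36), and Gbp7 11.55, 15.6 and 20.7 CPM (log2 fold change 0.70, SE 0.40). Replicate 3 was the highest library for all 3 GBPs, and for 8 of the 9 genes. Gbp7 overlapped with Rcm, while Gbp2 and Gbp3 did not.

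Among the effectors at 12 h, Iigp1 measured 4.87, 6.997 and 7.42 CPM (log2 fold change 0.87, SE 0.31) and lay above every Rcm library. Tgtp1 measured 7.33, 8.90 and 10.7 CPM (log2 fold change 0.61, SE 0.33) and Tgtp2 had 15, 36 and 21 counts (log2 fold change 0.66, SE 0.52). The last 2 genes overlapped with Rcm. The regulators differed least, with 19.2, 23.9 and 28.2 CPM for Igtp (log2 fold change 0.46, SE 0.28) and 28.5, 33.2 and 42.25 CPM for Irgm1 (log2 fold change 0.26, SE 0.36). Irgm1 overlapped with Rcm and Igtp did not.

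Irgm2 was the exception, at 22.2, 6.07 and 28.15 CPM. Replicate 2 gave 118 counts and stood apart from the other 2 libraries, although Igtp, with which Irgm2 shares exonic bases, had 464 counts in the same library. Without that library, the log2 difference of Irgm2 between R-Scm 12 h and Rcm was 0.39 in place of -0.03. The cause was not tested.

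At 24 h after the same exchange all 9 genes were lower than in Rcm by the fitted value, with a median log2 difference of -0.66 and a range of -1.12 to -0.33. None passed both thresholds in edgeR or in DESeq2, and 0.377% of all genes passed them in edgeR. An unadjusted p under 0.05 in edgeR was found for 3 of the 9 and for 1582 of the 15381 genes tested. Iigp1 alone had all R-Scm 24 h libraries below all Rcm libraries, as did 5.64% of all genes.

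Of the R-Scm 24 h libraries, replicate 1 stood apart from the other 2. It was the highest library for all 9 genes and had a summed level of 164 CPM, against 58.5 and 52.04 CPM in replicates 2 and 3. Gbp3 measured 40.9, 13.1 and 10.2 CPM (log2 fold change -0.56, SE 0.37). Irgm2 measured 22.97, 4.92 and 4.89 CPM (log2 fold change -0.81, SE 0.56). For both genes replicate 1 was above every Rcm library and replicates 2 and 3 were below every one.

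Replicate 1 was likewise far above the other 2 libraries in Igtp (17.4, 6.19 and 6.07 CPM), Irgm1 (33.3, 11.4 and 10.1 CPM) and Gbp2 (31.2, 14.9 and 12.6 CPM). The same held for Gbp7 (7.95, 3.91 and 2.55 CPM) and Tgtp2 (21, 5 and 7 counts). Tgtp1 measured 7.01, 2.46 and 3.72 CPM, and Iigp1, at 2.003, 1.33 and 1.53 CPM, was below Rcm in all 3 libraries. Without replicate 1, 6 of the 9 genes passed both thresholds as lower than in Rcm (Igtp, Irgm1, Irgm2, Gbp2, Gbp3 and Gbp7), beside 2.13% of all genes, and the median log2 difference was -1.43. Since replicate 1 also lay closest to Rcm over all tested genes, its part in these values is given with and without it and its cause was not tested.

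Between 12 h and 24 h of the Rcm to Scm exchange, all 9 genes had a lower fitted level, with a median log2 difference of -1.27 and a range of -1.98 to -0.78. Igtp (log2 fold change -1.27, SE 0.29), Iigp1 (log2 fold change -1.98, SE 0.32) and Gbp2 (log2 fold change -1.40, SE 0.26) passed both thresholds, beside 0.442% of all genes that passed them as lower. In 6 genes every 24 h library lay below every 12 h library, as did 8.43% of all genes. Iigp1 changed most, from a mean of 6.43 ± 1.37 to 1.62 ± 0.3475 CPM (mean ± SD, n = 3), a level 3.95 times lower. Without R-Scm 24 h replicate 1, 8 of the 9 genes passed, all except Tgtp2, beside 1.43% of all genes, with a median of -1.95. Without replicate 3 the median was -0.995 and 1 gene passed (0.172% of all genes), as was the case without replicate 2 or without R-Scm 12 h replicate 3. Without Rcm replicate 3 the count stayed at 3, and without any other library it was 2. DESeq2 on all libraries passed 5 (0.911% of all genes).

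**Figure D2:**
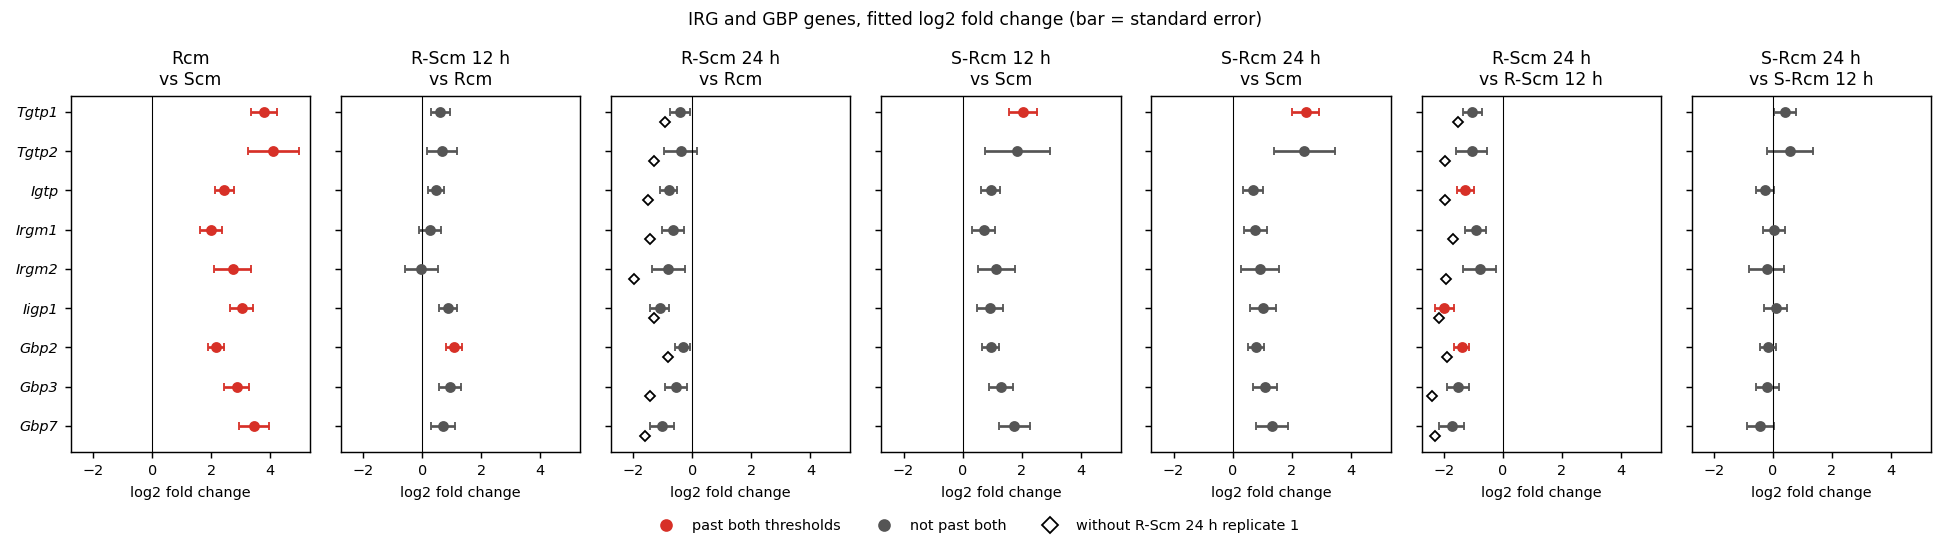
Fitted log2 fold change (x axis) with its standard error for the 9 genes in the 7 comparisons, red where both thresholds were passed, with open diamonds for the fit without R-Scm 24 h replicate 1. All 9 values are positive for Rcm against Scm and for both S-Rcm groups against Scm, and all 9 are negative for R-Scm 24 h against R-Scm 12 h.

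In the opposite exchange the group means of these genes lay between those of the steady media. After 12 h in Rcm all 9 were higher than in steady Scm by the fitted value, with a median log2 difference of 1.14 and a range of 0.72 to 2.05, while the values for steady Rcm against the same Scm libraries had a median of 2.86. In 8 genes, all except Iigp1, every S-Rcm 12 h library lay above every Scm library, as did 14.4% of all genes tested, although for Tgtp2 the nearest libraries of the 2 groups had 2 counts each. Only Tgtp1 passed both thresholds (0.598% of all genes passed them as higher), and leaving out R-Scm 24 h replicate 1, which belongs to neither group but enters the common spread, brought the number to 4 (1.04% of all genes). DESeq2 on all libraries also passed 4 (1.18% of all genes). The call of Tgtp1 was lost (0 genes) without any 1 of the Scm or S-Rcm 12 h libraries, and without S-Rcm 24 h replicate 3, Rcm replicate 2 or R-Scm 12 h replicate 2.

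Tgtp1 measured 1.92, 1.51 and 1.87 CPM in S-Rcm 12 h (log2 fold change 2.05, SE 0.47), and Gbp7 3.01, 3.31 and 2.75 CPM (log2 fold change 1.76, SE 0.52). Gbp3 measured 11.2, 12.3 and 8.55 CPM (log2 fold change 1.30, SE 0.41) and Gbp2 10.8, 11.3 and 9.48 CPM (log2 fold change 0.95, SE 0.28). These libraries were tightly grouped and lay between the 2 steady media, overlapping neither. Tgtp2 had 4, 3 and 2 counts, a ratio to Scm of 4.03 with a counting interval of 0.835 to 38.4, so no difference was detectable at this depth. With Tgtp2 at the lower end of that interval the middle value over the set was 0.956.

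The regulators measured 6.79, 5.66 and 5.91 CPM for Igtp (log2 fold change 0.96, SE 0.32), 12.3, 12.2 and 11.3 CPM for Irgm1 (log2 fold change 0.72, SE 0.38) and 7.17, 6.78 and 5.15 CPM for Irgm2 (log2 fold change 1.14, SE 0.62), without passing both thresholds. Iigp1 measured 0.931, 0.953 and 0.527 CPM (log2 fold change 0.92, SE 0.44), and its replicate 3 fell within the Scm range.

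At 24 h after the Scm to Rcm exchange the median log2 difference from Scm was 1.02, no closer to that of Rcm than at 12 h, with a range of 0.69 to 2.47. Tgtp1 again was the 1 gene past both thresholds (0.221% of all genes passed them as higher), a call lost (0 genes) without any 1 Scm library or S-Rcm 24 h replicate 1 or 3, while 2 genes passed without R-Scm 24 h replicate 1 (0.529% of all genes). In 6 genes there was no overlap with Scm (10.6% of all genes). Tgtp1 measured 3.37, 1.45 and 2.28 CPM (log2 fold change 2.47, SE 0.46). Gbp3 measured 11.8, 7.88 and 8.29 CPM (log2 fold change 1.10, SE 0.41). Both genes had their highest value in replicate 1, as did 6 of the 9, and this library lay closest to R-Scm 24 h over all tested genes.

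Gbp2 measured 11.99, 7.15 and 9.30 CPM and Gbp7 2.53, 2.51 and 1.71 CPM at 24 h, and Igtp 4.82, 4.58 and 5.88 CPM. Irgm1 measured 18.1, 8.38 and 10.6 CPM, Irgm2 7.59, 3.58 and 5.315 CPM and Iigp1 1.02, 0.447 and 1.14 CPM. Irgm1 and Iigp1 overlapped with Scm through replicate 2, the library that lay closest to Scm over all tested genes. Without it the median log2 difference from Scm was 1.21, and without replicate 1 it was 0.88. Tgtp2 had 4, 8 and 1 counts, a ratio to Scm of 6.16 with a counting interval of 1.40 to 56.2, and at its lower end the middle value over the set was 0.924. Set directly against S-Rcm 12 h, the 24 h values had a median log2 difference of -0.16 and a range of -0.42 to 0.58. None of the 9 passed both thresholds in edgeR or DESeq2 (0.156% of all genes passed in edgeR). None had an unadjusted p under 0.05 in edgeR, beside 1424 of the 15381 genes tested. In 1 gene, Gbp7, all 24 h libraries lay below all 12 h libraries (8.48% of all genes).

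The order of the group means was close to the same in the 9 genes. In 8 of them it ran from R-Scm 12 h through Rcm and R-Scm 24 h to the S-Rcm groups and Scm, and in Irgm2 Rcm came before R-Scm 12 h. The highest mean was 4.76 times the lowest for Irgm1, 7.53 times for Igtp, 6.69 times for Irgm2, 9.41 times for Gbp2, 14.0 times for Gbp3, 14.99 times for Iigp1, 17.8 times for Gbp7 and 21.2 times for Tgtp1. No such value is given for Tgtp2, whose lowest group, Scm, had 2 counts in all. Neighbours in that order often did not separate. R-Scm 12 h and Rcm overlapped in 4 of the 8 genes with R-Scm 12 h on top, Rcm and R-Scm 24 h overlapped in 7 of the 8 genes in which they were neighbours, R-Scm 24 h and the S-Rcm group next to it in 7 of 9, and S-Rcm 12 h and S-Rcm 24 h in 8 of 9. Scm did not overlap with the group above it in 8 of 9 genes, Iigp1 being the exception, and for Tgtp2 that rests on libraries of 2 counts each.

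Over the 18 libraries the log2 level of each gene followed the mean of the other 8, with Pearson's r from 0.87 for Irgm2 to 0.99 for Gbp3. This is a description, since the libraries share 6 groups and the genes were chosen together. The 10 other genes with the highest r to the mean standardised level of the 9 were Ifi44 (0.992), Ifit1 (0.992), Parp14 (0.991), Ifit3 (0.990), Usp18 (0.987), Mx2 (0.984), Rtp4 (0.983), Ddx58 (0.983), Ifit3b (0.981) and Oasl2 (0.98), of 15381 genes and over 18 libraries. Of these 10, 9 are in the list of genes typical of interferon alpha and beta, and the other is Parp14, an ADP-ribosyltransferase. That list was compiled with earlier results of the same libraries known, so nothing is read from this overlap.

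**Figure D3:**
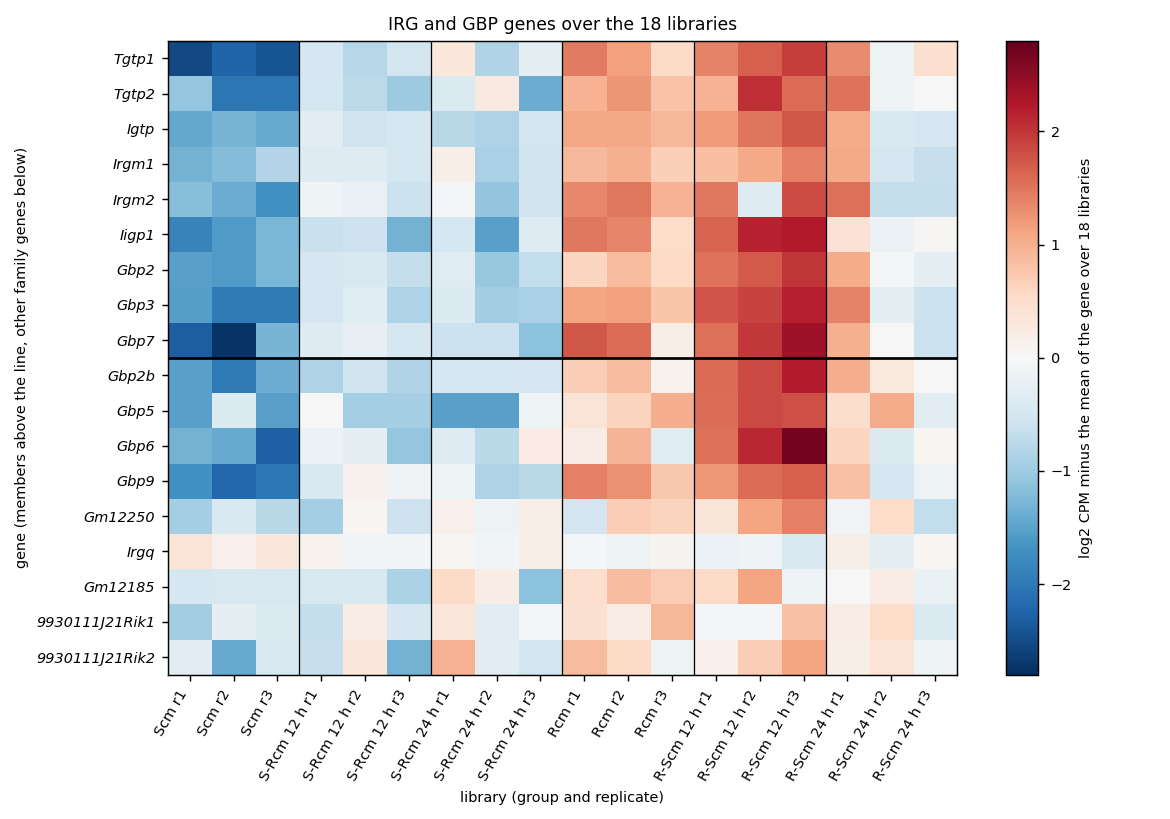
Log2 CPM of the 9 genes (above the line) and of the 9 other tested genes of the same families (below), each minus its mean over 18 libraries, with libraries ordered by group. The 9 genes are below their mean in Scm and above it in Rcm and R-Scm 12 h, with Irgm2 in R-Scm 12 h replicate 2 as the exception. In R-Scm 24 h the 9 genes are higher in replicate 1 than in replicates 2 and 3. Below the line, Gbp5, Gm12250, Gm12185, 9930111J21Rik1 and 9930111J21Rik2 are higher in replicate 2 than in replicate 1.

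Other GBP genes were higher in Rcm as well. Of 18 other IRG and GBP genes, 9 passed the filter and 3 of these were higher in Rcm than in Scm, namely Gbp2b (log2 fold change 2.25, SE 0.28, adjusted p = 0.000227), Gbp9 (log2 fold change 3.36, SE 0.37, adjusted p = 0.000117) and Gbp6 (log2 fold change 2.30, SE 0.53, adjusted p = 0.0262). The median log2 difference of the 9 was 1.56, against 0.01 over all genes, and 1.43 with Gbp5 at the lower end of its counting interval. All 9 had an unadjusted p under 0.05, as did 2498 of the 15381 genes tested. In 7 of the 9, every Rcm library lay above every Scm library, as against 12.8% of all genes. Of all genes tested, 1.67% passed both thresholds as higher in Rcm. The list was compiled with earlier results of these libraries known. Gbp5, Gm12250 and Gm12185 had at most 5 counts in any Scm library and passed the filter through other groups. So did Gbp6, with at most 7 counts in Scm, 9930111J21Rik1, with at most 10, and Gbp9, with 6 to 12. Nothing is therefore read from how many of the list differed. Gbp2b measured 2.835, 2.01 and 3.09 CPM in Scm and 13.5, 15.5 and 8.94 CPM in Rcm, with no overlap. Gbp9 measured 0.642, 0.416 and 0.481 CPM in Scm and 6.42, 5.855 and 4.01 CPM in Rcm. The remaining 6 did not pass. Gbp5 had 2 counts in Scm and 22 counts in Rcm over the 3 libraries, a ratio of 10.3 with an exact counting interval of 2.54 to 90.65. The log2 differences were 1.56 (SE 0.61) for Gm12250, which encodes an effector IRG, 1.43 (SE 0.49) for Gm12185, 1.24 (SE 0.41) for 9930111J21Rik1, 1.17 (SE 0.48) for 9930111J21Rik2 and -0.32 (SE 0.12) for Irgq, a divergent member of the family that was expressed at 61.95 ± 5.37 CPM in Scm.

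The other 9 genes of the list had at most 20 counts in any library. They were Gbp4, Gbp8, Gbp10, Gbp11, Irgc1, Gm4951, Gm4841, F830016B08Rik and Gm5431. At 12 h of the Rcm to Scm exchange, Gbp2b rose above Rcm to 25.4, 30.5 and 38.6 CPM (log2 fold change 1.32, SE 0.25, adjusted p = 0.00499) and Gbp6 to 3.45, 5.20 and 7.73 CPM (log2 fold change 1.90, SE 0.41, adjusted p = 0.0118). At 24 h, Gbp2b (log2 fold change -1.42, SE 0.25, adjusted p = 0.00982), Gbp6 (log2 fold change -2.11, SE 0.41, adjusted p = 0.0183) and Gbp9 (log2 fold change -1.36, SE 0.30, adjusted p = 0.0396) were lower than at 12 h. None of the 9 passed for R-Scm 24 h against Rcm in edgeR or DESeq2. In edgeR 1 had an unadjusted p under 0.05, beside 1582 of the 15381 genes tested. Of the 9, Gbp9 passed in S-Rcm 12 h against Scm (log2 fold change 2.02, SE 0.39, adjusted p = 0.0162). At 24 h none passed in edgeR and 2 passed in DESeq2 (Gbp2b and Gbp9). In edgeR 3 had an unadjusted p under 0.05, beside 1247 of the 15381 genes tested.

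The factors that carry the interferon signal moved in part. Of 21 listed genes of interferon signalling, 17 were tested and 3 were higher in Rcm than in Scm, beside 1.67% of all genes tested. They were Stat2 (log2 fold change 1.66, SE 0.30, adjusted p = 0.00547), Irf9 (log2 fold change 1.45, SE 0.27, adjusted p = 0.007) and Irf7 (log2 fold change 1.92, SE 0.32, adjusted p = 0.00242), which amplifies interferon production. Stat2 measured 24.1, 23.6 and 24.1 CPM in Scm and 77.2, 76.85 and 73.2 CPM in Rcm. Irf9 measured 23.8, 24.96 and 25.4 CPM in Scm and 69.7, 81.4 and 51.9 CPM in Rcm. The libraries of Stat2 and of Irf9 were thus separated between the media. Irf1, which drives many genes that answer to interferon gamma, measured 23.5, 24.7 and 30.2 CPM in Scm and 23.6, 29.4 and 26.4 CPM in Rcm (log2 fold change 0.02, SE 0.20, adjusted p = 0.975), with the libraries overlapping. Socs1, an inhibitor of this signalling that was named after its values were seen, measured 42.5 ± 1.79 CPM in Scm and 26.3 ± 7.565 CPM in Rcm (mean ± SD, n = 3). It did not pass in edgeR (log2 fold change -0.69, SE 0.21, adjusted p = 0.0961), and in DESeq2 it passed as lower.

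The receptor chains and their kinases did not pass the test. The log2 difference between Rcm and Scm was -0.12 (SE 0.16) for Ifnar1, -0.16 (SE 0.09) for Ifnar2, 0.06 (SE 0.17) for Ifngr1, -0.09 (SE 0.09) for Ifngr2, 0.17 (SE 0.11) for Jak1, -0.08 (SE 0.13) for Jak2 and -0.08 (SE 0.13) for Tyk2. These 7 genes were named after their values were seen. The median log2 difference of the 17 was -0.015. Ifng had 0 counts in all 18 libraries, which allows up to 0.152 to 0.208 CPM in a library (3 counts), and Ifnb1 had at most 2. In edgeR none of the 17 passed in any of the 4 comparisons of an exchange with its steady medium or in the 2 between time points. In these comparisons 2 to 5 had an unadjusted p under 0.05, beside 1247 to 2706 of the 15381 genes tested. In DESeq2, Irf7 passed as lower in R-Scm 24 h than in R-Scm 12 h and none passed in the other 5.

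**Figure D4:**
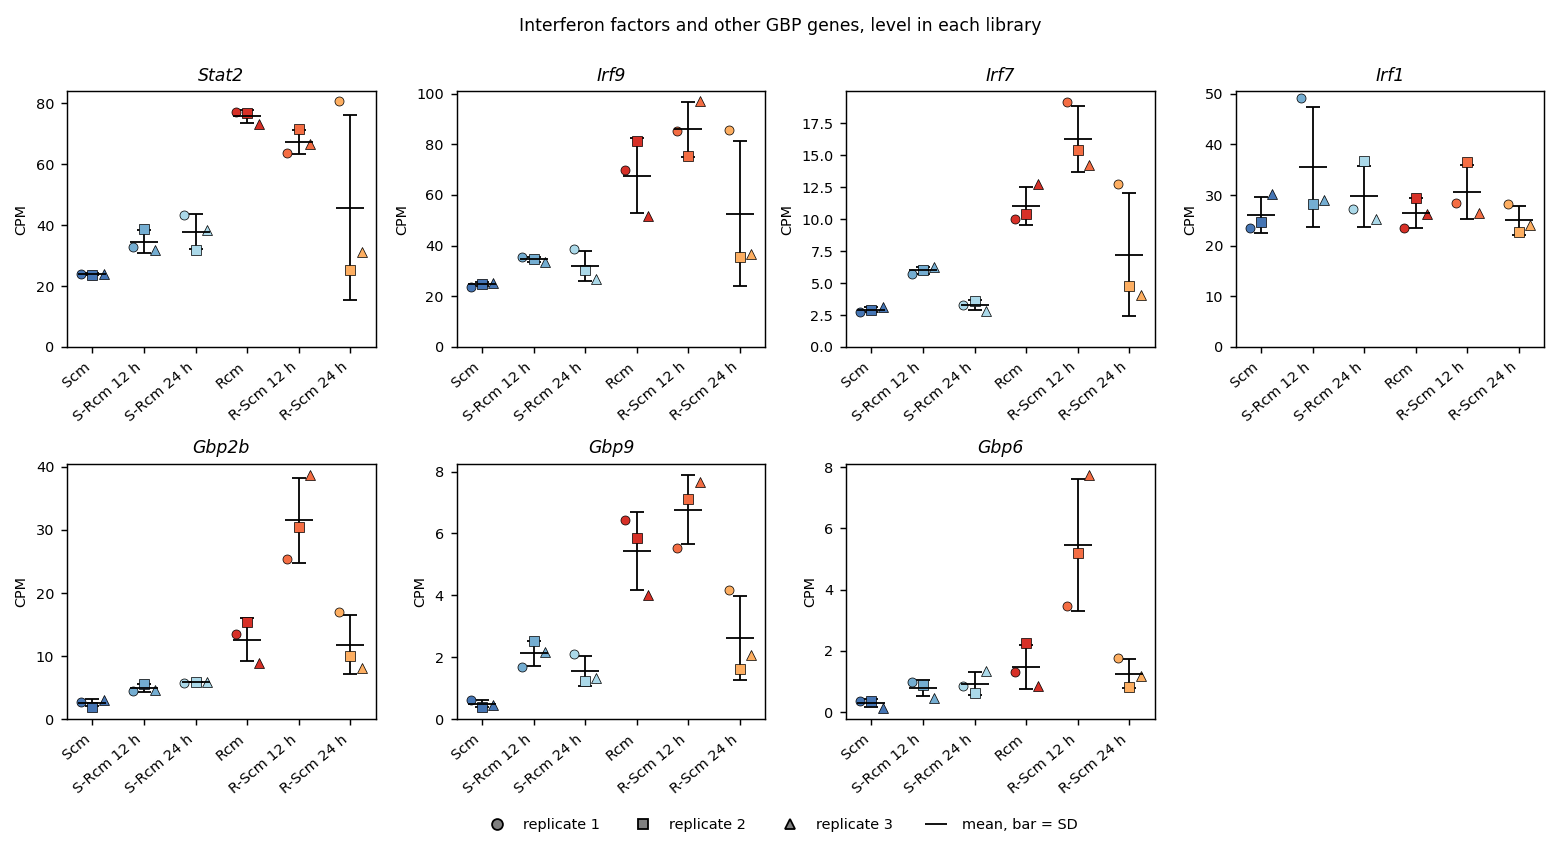
Level (CPM, linear axis that includes 0) of Stat2, Irf9, Irf7 and Irf1 and of Gbp2b, Gbp9 and Gbp6 in the 6 groups, with 1 symbol per library, the mean as a line and a bar of 1 SD (n = 3). R-Scm 24 h replicate 1 lies above replicates 2 and 3 in all 7 panels, and in Irf1 the groups overlap.

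In R-Scm 24 h, Stat2 and Irf9 showed the split between libraries seen in the GTPases. Stat2 measured 80.6, 25.25 and 31.2 CPM and Irf9 85.5, 35.5 and 36.55 CPM, each highest in replicate 1. For R-Scm 12 h, the values were 63.85, 71.5 and 66.6 CPM for Stat2 and 85.3, 75.5 and 97.2 CPM for Irf9. Every Stat2 value there lay below Rcm, while Irf9 overlapped.

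Of 17 genes typical of interferon alpha and beta, all were tested and 16 were higher in Rcm than in Scm, with a median log2 difference of 3.003. Among all genes tested 1.67% passed as higher, and the median was 0.01. Those with the smallest adjusted p were Cmpk2 (log2 fold change 3.22, SE 0.34, adjusted p = 7.54e-05), Ifit3 (log2 fold change 3.34, SE 0.39, adjusted p = 0.000196), Isg15 (log2 fold change 2.61, SE 0.31, adjusted p = 0.000213) and Ifit1 (log2 fold change 3.64, SE 0.44, adjusted p = 0.000378). Of 14 genes typical of interferon gamma, 7 were tested and 4 were higher in Rcm, with a median of 1.58 over the 7. They were the chemokine Cxcl10 (log2 fold change 2.12, SE 0.19, adjusted p = 8.81e-06), the proteasome subunit Psmb8 (log2 fold change 2.47, SE 0.39, adjusted p = 0.00177) and the peptide transporters Tap1 (log2 fold change 1.58, SE 0.23, adjusted p = 0.000874) and Tap2 (log2 fold change 0.81, SE 0.19, adjusted p = 0.0273). Among the genes filtered out, H2-Aa, H2-Ab1 and Ido1 had 0 counts in every library. These lists were compiled with earlier results of the same libraries known, and many of their genes answer to both kinds of interferon. Some of their genes passed the filter through other groups, such as Cmpk2 and Psmb8, with at most 9 and 8 counts in any Scm library. Nothing is therefore read from how many of either list differed.

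Oasl1 (log2 fold change 1.80, SE 0.36, adjusted p = 0.00702) and Cxcl10 (log2 fold change 1.38, SE 0.17, adjusted p = 0.000213) were higher in R-Scm 12 h than in Rcm. In R-Scm 24 h no gene of either list passed against Rcm in edgeR, and Cxcl10 alone passed in DESeq2. In edgeR 7 of 17 and 4 of 7 had an unadjusted p under 0.05, beside 1582 of the 15381 genes tested. Against 12 h, 6 of 17 and 2 of 7 were lower at 24 h, among them Oasl1 (log2 fold change -2.14, SE 0.36, adjusted p = 0.00928), Mx1 (log2 fold change -1.93, SE 0.36, adjusted p = 0.0159), Cmpk2 (log2 fold change -1.43, SE 0.27, adjusted p = 0.017), Rsad2 (log2 fold change -2.05, SE 0.43, adjusted p = 0.0287), Cxcl10 (log2 fold change -1.995, SE 0.17, adjusted p = 4.54e-05) and Tap1 (log2 fold change -1.06, SE 0.22, adjusted p = 0.023). In the opposite exchange, Oasl1 (log2 fold change 2.25, SE 0.42, adjusted p = 0.0137), Cmpk2 (log2 fold change 1.62, SE 0.36, adjusted p = 0.0323), Ifit3 (log2 fold change 1.70, SE 0.38, adjusted p = 0.0409) and Cxcl10 (log2 fold change 1.85, SE 0.18, adjusted p = 5.12e-05) were higher than in Scm at 12 h. At 24 h Cxcl10 alone passed in edgeR (log2 fold change 1.08, SE 0.19, adjusted p = 0.0165), and in DESeq2 Cmpk2, Ifit1 and Ifit3 passed as well. Between the 2 times of this exchange none passed in edgeR, and Oasl1 and Cxcl10 passed in DESeq2. In edgeR 2 of 17 and 1 of 7 had an unadjusted p under 0.05, beside 1424 of the 15381 genes tested. Without R-Scm 24 h replicate 1, the genes of all 5 related lists that passed went from 0 to 20 for R-Scm 24 h against Rcm, from 4 to 10 for R-Scm 12 h against Rcm, from 12 to 28 for R-Scm 24 h against 12 h, from 5 to 14 for S-Rcm 12 h against Scm and from 1 to 9 for S-Rcm 24 h against Scm. Leaving out other libraries lowered the last 3 of these counts, and with them most of the calls. For R-Scm 24 h against 12 h, 3 genes passed without R-Scm 24 h replicate 3, 4 without replicate 2 and 6 without R-Scm 12 h replicate 3. For S-Rcm 12 h against Scm, 1 passed without Scm replicate 3, 2 without Scm replicate 1 or 2 or S-Rcm 12 h replicate 2 or 3, and 3 without S-Rcm 12 h replicate 1. For S-Rcm 24 h against Scm, 0 passed without Scm replicate 1 or 3 or S-Rcm 24 h replicate 1, and 2 passed without S-Rcm 12 h replicate 2.

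Of 18 genes whose products act with IRGs and GBPs at vacuoles, 16 were tested. Trim21, a cytosolic antibody receptor and ubiquitin ligase, was higher in Rcm (log2 fold change 1.51, SE 0.29, adjusted p = 0.00753), and Sqstm1, the ubiquitin-binding autophagy adaptor p62, was lower (log2 fold change -0.59, SE 0.12, adjusted p = 0.00914). Sqstm1 went from 431 ± 21.9 CPM in Scm to 287 ± 39 CPM in Rcm. The median of the 16 was -0.07. Casp4, which encodes the sensor of cytosolic lipopolysaccharide called caspase-11 in mice, was lower in R-Scm 24 h than in R-Scm 12 h (log2 fold change -2.11, SE 0.37, adjusted p = 0.00975). None passed in the other 5 comparisons in edgeR or DESeq2. In edgeR 0 to 5 had an unadjusted p under 0.05 there, beside 1247 to 2706 of the 15381 genes tested.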

How the data were processed

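The authors sequenced paired-end libraries of mouse embryonic fibroblasts, aligned the reads to GRCm38 with HISAT2, and deposited raw counts per gene for 18 libraries. The counting tool and its strand setting were not given in the sources used here. The members and the lists of related genes were chosen with earlier results of these data known, and which values chose the members is not recorded.

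Genes with low counts were removed with filterByExpr (15381 of 55487 kept). One edgeR (4.0.16) quasi-likelihood model of 6 groups, with TMM scaling (factors 0.963 to 1.03) and Benjamini-Hochberg adjustment over all tested genes, gave 7 comparisons. SE is the absolute log2 fold change divided by the square root of F. CPM used the same scaling. On simulated counts for Rcm against Scm (15172 genes), 73% of genes changed by a log2 of 1 and 96% of those changed by 2 were recovered. Among the unchanged genes there were 9 false calls. The changed genes were drawn from those with a mean above 1 CPM, so these rates do not cover genes at lower levels such as Tgtp2. Intervals for Tgtp2 are exact and cover counting error only. The text names all 9 members, every other tested IRG and GBP gene, up to 4 DEGs per list and comparison by adjusted p, with Stat2, Irf1 and Irf9, and the 10 genes most like the members. One listed gene is not reported here. Transcripts were aligned with blastn (2.17.0). The alternatives were 0.01 as the adjusted p threshold, no fold threshold, other scalings and filters, a replicate block, 2-group fits, DESeq2 (1.42.0), summed Tgtp1 and Tgtp2, and each library left out. Of 55487 gene identifiers, 55141 were in GENCODE M21.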

Additional observations from a re-analysis of the deposited data

How the results depend on the processing

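The median log2 fold change of the members kept its sign under every alternative run in 6 of the 7 comparisons. For S-Rcm 24 h against S-Rcm 12 h, where no member passed, it went from -0.16 to 0.01 without S-Rcm 24 h replicate 2. Of the single members, signs changed when 1 library was left out for Tgtp2, Irgm1, Irgm2, Iigp1 and Gbp2 in that comparison and for Irgm2 in R-Scm 12 h against Rcm, none of which had passed. The counts and medians stayed within their limits with other scalings, no filter, summed Tgtp1 and Tgtp2, and the replicate block, under which the members past both thresholds in Rcm against Scm were 9 with a median log2 fold change of 2.89. Deviations of same-numbered replicates had correlations from -0.196 to 0.346, with 3 of 21 pairs over 0.1, and the block changed no count by over 1.5 times. In S-Rcm 24 h, R-Scm 12 h and R-Scm 24 h, the deposited counts number some libraries otherwise than the titles used here. The check and the block cover the title numbers only, so they cannot exclude a pairing of the samples. With an adjusted p under 0.01, the members passing were 0 for R-Scm 12 h against Rcm (0.793% of all genes passed in the same direction), S-Rcm 12 h against Scm (0.228%) and S-Rcm 24 h against Scm (0.0325%), and 1 for R-Scm 24 h against 12 h (0.137%), and the genes of the 5 related lists were 1, 0 and 4 for the last 3 of these. Without a fold threshold, 7 listed genes passed for R-Scm 12 h against Rcm. With at least 10 counts in every library, which keeps 5 members, 5 passed in Rcm against Scm (1.57% of all genes) with a median of 2.445 and 0 passed against Scm at 12 h (0.602%) or 24 h of Rcm (0.247%), while the listed genes were 2 for R-Scm 12 h against Rcm, 3 for S-Rcm 12 h and 5 for R-Scm 24 h against 12 h. Fits of the 2 compared groups alone passed 2 members for R-Scm 12 h against Rcm (0.813% of all genes), 7 for S-Rcm 12 h (1.27%) and 0 for R-Scm 24 h against 12 h (0.00685%), with 12 listed genes for S-Rcm 12 h, 4 for S-Rcm 24 h and 1 for R-Scm 24 h against 12 h. DESeq2 passed 4 members for S-Rcm 12 h (1.18% of all genes) and 5 for R-Scm 24 h against 12 h (0.911%), with 1 listed gene for R-Scm 24 h against Rcm, 10 for S-Rcm 12 h, 6 for S-Rcm 24 h, 20 for R-Scm 24 h against 12 h and 2 for S-Rcm 24 h against 12 h. Apart from the alternatives that change the thresholds, the filter or the libraries fitted, the cause was not tested.

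With each library left out in turn, the members passing were 6 to 9 for Rcm against Scm, 0 to 2 for R-Scm 12 h against Rcm, 0 to 6 for R-Scm 24 h against Rcm, 0 to 4 for S-Rcm 12 h against Scm, 0 to 2 for S-Rcm 24 h against Scm, 1 to 8 for R-Scm 24 h against 12 h and 0 to 0 for S-Rcm 24 h against 12 h. In the same order, the median log2 fold change ran from 2.78 to 2.95, 0.42 to 0.89, -1.43 to -0.35, 1.05 to 1.28, 0.88 to 1.21, -1.95 to -0.995 and -0.33 to 0.01, and the listed genes from 23 to 29, 3 to 10, 0 to 20, 1 to 14, 0 to 9, 3 to 28 and 0 to 1. The highest counts of members came without R-Scm 24 h replicate 1 in every comparison except S-Rcm 24 h against 12 h, where the count was 0 throughout, and in Rcm against Scm other libraries gave the same 9. The lowest count for Rcm against Scm came without Scm replicate 2, where 0.828% of all genes passed as higher, against 2.31% without Rcm replicate 3. Without R-Scm 24 h replicate 1, 2.13% of all genes passed as lower in R-Scm 24 h than in Rcm. Then 1.43% passed as lower than in R-Scm 12 h, and 1.04% as higher in S-Rcm 12 h than in Scm. The share of all genes thus moved with the library left out as well, so nothing is read from the counts of members alone. Members with few counts (Tgtp2, Iigp1 and Tgtp1) limit what depth can show.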
